A study of Arabidopsis thaliana with 75 samples.

Results

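Transcript levels of genes of the cell cycle and of DNA replication were read in sorted cells of the root epidermis and lateral root cap of Arabidopsis thaliana, on Affymetrix ATH1 arrays. The genes were taken by locus identifier: 49 genes for cyclins, cyclin-dependent kinases (CDKs), CDK inhibitors, activators of the anaphase-promoting complex (APC/C), replication licensing and fork proteins, and proteins of mitosis and cytokinesis. Of these 49 genes, 43 had a row among the 21440 genes of the expression table, while CYCB1;2, CYCB2;3, CDKB1;1, CDKB1;2, CDC20.1 and MCM6 were not analysed here. The 43 measured genes were 6 of 8 B-type cyclins, 7 of 7 A-type cyclins, 8 of 8 D-type cyclins, 3 of 5 CDKs, 5 of 5 CDK inhibitors, 2 of 3 APC/C activators, 10 of 11 replication genes and 2 of 2 genes of mitosis and cytokinesis. Values are log2 intensities, and a gene's value was compared only between samples, never with the value of another gene.

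A plant cell divides when cyclins bind and switch on CDKs. D-type cyclins with CDKA act against the retinoblastoma-related protein and so free E2F factors, which switch on S phase genes. The MCM helicase is loaded on DNA by CDC6 and CDT1, PCNA is the sliding clamp of the replication fork, and A-type and B-type cyclins with B-type CDKs carry the cell into mitosis, until the APC/C destroys them. Root epidermal cells divide in the meristem and then enter the endocycle, in which DNA is copied without mitosis. CCS52A proteins, which activate the APC/C, and the CDK inhibitors of the SIAMESE and KRP families are known for their part in ending mitosis in favour of the endocycle. Hair cells and non-hair cells lie in alternating files, and cells of the hair files divide for longer.

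The study grew seedlings for 5 days in continuous light at 23 °C on MS agar with 1% sucrose, cut about 2 mm of root tip and sorted the cells that carried the WER::GFP marker. It used 75 arrays in 25 groups of 3, of which 63 arrays (21 groups) were run at the University of Michigan and 12 arrays (4 groups) at Duke University. Each sample was a pool of seedlings, and in such bulk samples fewer cells of a type and less RNA per cell cannot be told apart. The marker gene is driven by the WER promoter, which is active through all stages of the epidermis and preferentially in non-hair cells. By the study's account, sorting with it takes lateral root cap cells as well as developing epidermis. All groups, controls included, carried it in a Columbia wild type or in a homozygous mutant. The hairy lines, whose epidermis makes hair cells in both positions, were wer-1 myb23-1 (wer myb23), gl3-1 egl3-1 (gl3 egl3) and ttg1-13 (ttg), and the hairless line was cpc-1 try-82 (cpc try). These 4 lines were measured at both facilities. The other groups were measured at Michigan alone: wild type, gl2-1, myc1-1, bhlh66-1, rhd6-1, cobl9-1, cow1-3, csld3-1, ire1-2 (ire), lrx1-4, mrh1-1, mrh2-1, mrh3-3 and rhd2-1, each untransferred, and 3 groups of rhd6-1 seedlings moved to fresh medium with the auxin IAA, with the ethylene precursor ACC, or with neither (rhd6 + MS).

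Array medians lay between 6.50 and 6.86 at Michigan and between 6.02 and 6.14 at Duke, and replicates of a group correlated at 0.898 to 0.992 and at 0.913 to 0.997 across genes. Of the 19 mutated genes with a row in the table, 9 fell in their own line and TRY was higher in cpc try (limma, Michigan, 5% false discovery rate, FDR); MRH1 in mrh1 had a difference of +1.73 with an adjusted p of 0.358. WER itself lay between 10.29 and 11.98 on every Michigan array. Some arrays stood apart from their group. In gl3 egl3 at Michigan, GL2 read 2.92, 8.52 and 4.79 in replicates 1 to 3 and TTG2 read 4.01, 7.16 and 4.29, so that replicate 2 lay near wild type (GL2 between 7.81 and 9.08) and far from its own replicates. The level of a list of 8 hair cell markers was -1.65 in mrh2 replicate 1 against 0.73 and 1.33 in the others. At Duke, the lateral root cap list was at -1.63 in wer myb23 replicate 2 against 0.69 and -0.70. The Michigan arrays also carried 3 kinds of name in the labels, 54 numbered, 5 with S and 4 with x, and wild type held 1 of each.

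For description, the measured genes were put in 4 lists by the phase they are known for. The G2/M list held 15 genes (B-type cyclins, CYCA1;1, the CYCA2 genes, CDKB2;1, CDKB2;2, the Aurora kinase gene AUR1 and KNOLLE, the syntaxin of the cell plate). The S list held 12 (CYCA3;1, CYCA3;2, E2FA, the MCM and PCNA genes, CDC6 and CDT1A), the G1 list 9 (the D-type cyclins and CDKA;1), and the brake list 7 (KRP1, KRP2, SIM, SMR1, WEE1, CCS52A1 and CCS52A2). The level of a list on an array is the mean, over its genes, of each gene's log2 value minus that gene's mean over the arrays of the facility.

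The share of the 43 genes that varied among the groups was near that of all genes at both facilities. At Michigan, 15 of the 43 genes varied among the 21 groups (limma's moderated F, 5% FDR), beside 29.8% of all genes tested, and at Duke 22 varied among the 4 groups, beside 47% of all genes. Michigan calls were 8 of 15 genes of the G2/M list, 0 of 12 of the S list, 2 of 9 of the G1 list and 5 of 7 of the brake list; Duke calls were 5, 9, 4 and 4. Across the Michigan groups the strongest variation was that of CCS52A1 (F = 16.1, adjusted p = 3.94e-12) and SIM (F = 6.24, adjusted p = 5.6e-06). The standard deviation of the group means of CCS52A1 was 0.565 against 0.235 between replicates. For SIM the same pair of values was 0.422 and 0.289.

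**Figure D1:**
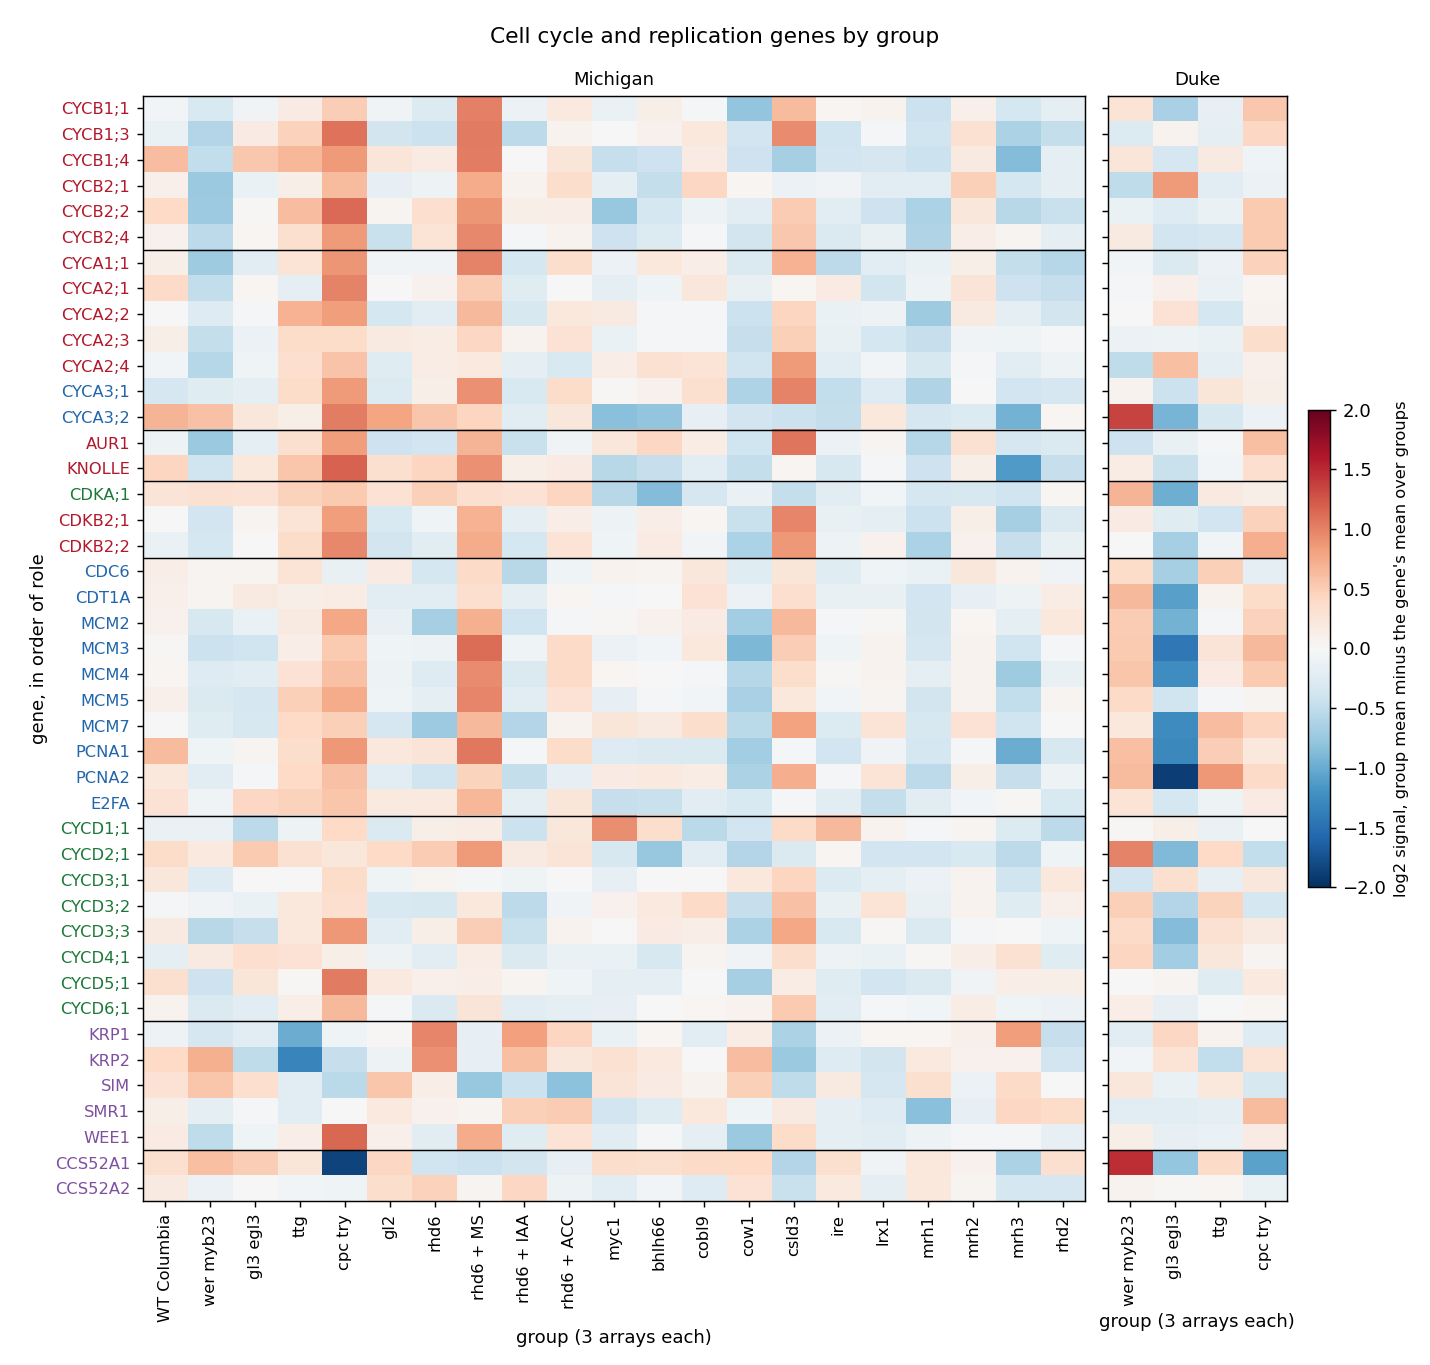
Heat map of the 43 genes (rows, label colour by list: red G2/M, blue S, green G1, purple brake) in the 21 Michigan and 4 Duke groups (columns), showing the mean of 3 arrays minus the gene's mean over the groups of that facility, in log2 units. The column of cpc try at Michigan is high in the red rows and low in CCS52A1, and the column of gl3 egl3 at Duke is low in most blue rows.

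The G2/M list was highest in the hairless cpc try and lowest in the hairy wer myb23 at Michigan, but replicates of a group spread as widely as the groups did. In cpc try the G2/M list stood at 0.24, 1.15 and 1.11, in wild type at 0.45, -0.19 and 0.09, and in wer myb23 at -0.54, -0.72 and -0.29. The 3 cpc try arrays lay above all 3 arrays of wer myb23, and replicate 1 of cpc try lay below replicate 1 of wild type. The standard deviation of the 21 group means was 0.370 for the G2/M list and 0.308 for the S list, while the spread between replicates was 0.431 and 0.411. The widest group was rhd6 + IAA, with a range of 1.55 in the G2/M list and 1.65 in the S list over its 3 arrays. In cow1 the S list stood at 0.24, -0.45 and -1.38, the lowest array of all 63.

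**Figure D2:**
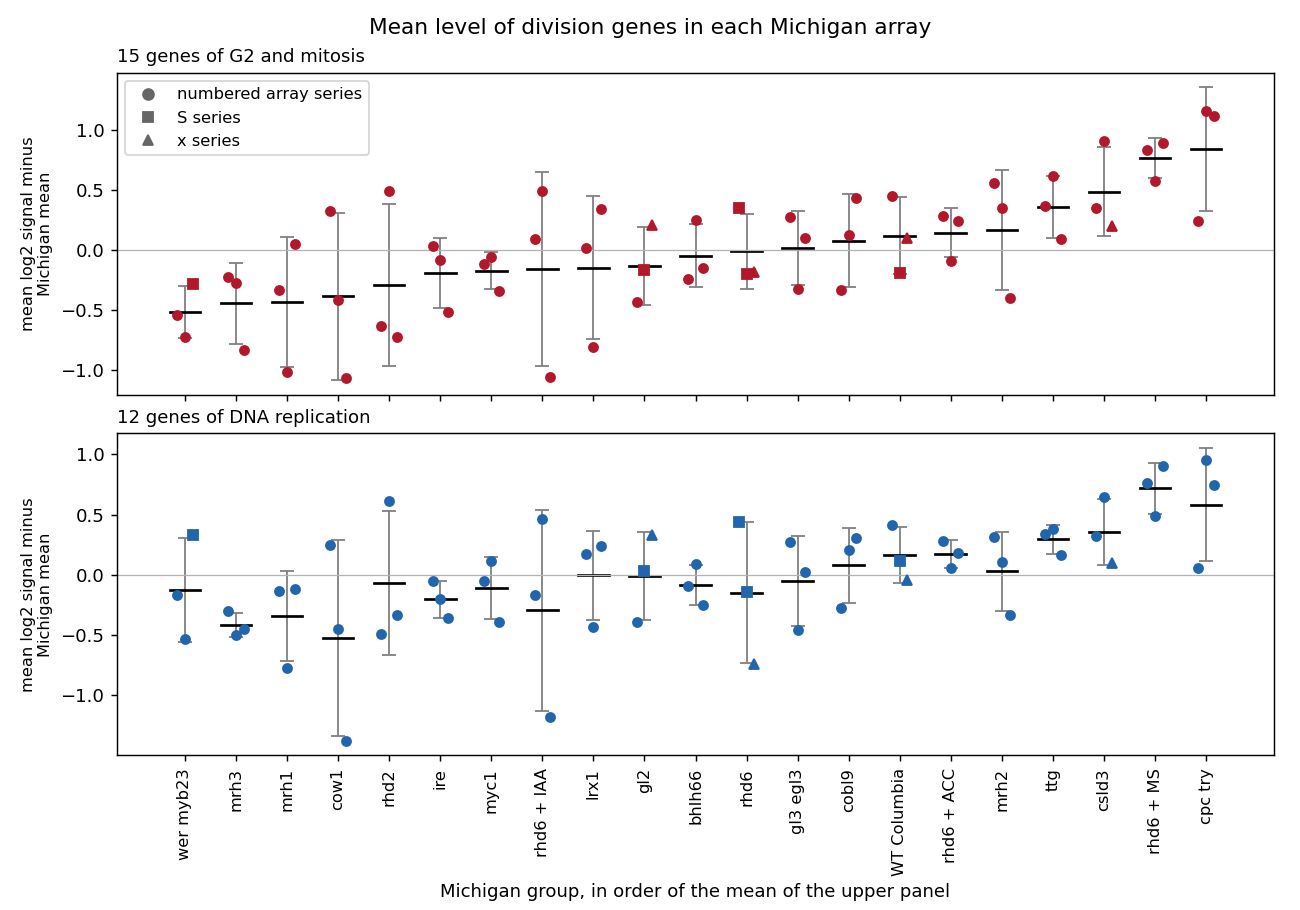
Levels of the G2/M list and of the S list (log2 units relative to the Michigan mean) in the 21 Michigan groups, ordered by the mean of the upper panel; points are single arrays, their shape gives the kind of array name, and bars are the mean and SD of 3 arrays. The points of a group often span as much as the means of different groups, and cpc try and rhd6 + MS have the highest means in both panels.

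The first comparison set the 3 hairy lines (9 arrays) against the hairless cpc try (3 arrays), the contrast that separates hair cells from non-hair cells in this design. At Michigan CCS52A1, the APC/C activator that promotes the endocycle in the root, was higher in the hairy lines, and so was SIM, the CDK inhibitor that trichomes need to stop dividing. CYCD6;1, CYCD3;3, CYCD5;1 and the kinase gene WEE1 were lower. These were 6 of 43 genes (14%) at 1% FDR (limma), beside 7.16% of all genes tested (4.41% higher and 2.75% lower). The median difference of the 43 genes was -0.68 against -0.03 for all genes, and 36 of 43 lay below 0, beside 54.3% of all genes. Leaving out gl3 egl3 replicate 2 gave 6 again, while leaving out replicate 3 of cpc try gave 1, as did a fit of only the groups compared.

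CCS52A1 (AT4G22910) read 10.26, 9.86 and 10.35 in wer myb23, 10.09, 9.91 and 10.12 in gl3 egl3, 10.07, 9.36 and 9.95 in ttg, and 7.68, 7.58 and 7.85 in cpc try. All 9 hairy arrays lay above all 3 hairless arrays, which held for 5.56% of all genes. The CCS52A1 difference was 2.29 log2 units (SE 0.163), a 4.91-fold higher level in the hairy lines (limma, adjusted p = 3.11e-15). It held in 12 of 12 fits with 1 array left out. CCS52A2, its close relative in the same family, differed by 0.03 (SE 0.211, adjusted p = 0.968).

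SIM (AT5G04470) read 10.77, 10.72 and 10.73 in wer myb23, 10.13, 10.69 and 10.75 in gl3 egl3, and 10.26, 9.31 and 10.37 in ttg, against 10.21, 9.41 and 9.35 in cpc try. The groups overlapped, since ttg replicate 2 was as low as the low cpc try arrays and cpc try replicate 1 lay among the hairy arrays. The SIM difference was 0.76 (SE 0.195), or 1.69-fold, with an adjusted p of 0.00523, and the call was kept in 7 of 12 fits with 1 array left out. WEE1 (AT1G02970), which codes for a kinase that inhibits CDKs when replication is disturbed, read 6.35, 5.33 and 6.86 in wer myb23, 6.82, 6.29 and 6.68 in gl3 egl3, 6.88, 6.76 and 6.83 in ttg, and 7.06, 8.42 and 8.01 in cpc try. Every hairy array of WEE1 was below every cpc try array, with a difference of -1.30 (SE 0.325, adjusted p = 0.00414), and the call was lost without cpc try replicate 2, cpc try replicate 3 or wer myb23 replicate 2. The CDK inhibitors KRP1 and KRP2 differed by -0.44 and 0.10, and SMR1 by -0.15, none of them past the threshold.

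Of the 8 D-type cyclins, which start the cycle in G1, 3 were lower in the hairy lines. CYCD3;3 (AT3G50070), of the subfamily that answers cytokinin, read 8.28, 8.21 and 8.62 in wer myb23, 8.79, 8.18 and 8.42 in gl3 egl3, 9.08, 9.73 and 8.58 in ttg, and 9.36, 10.08 and 9.93 in cpc try. Only ttg replicate 2 reached the range of cpc try, and the CYCD3;3 difference was -1.14 (SE 0.262, adjusted p = 0.00166), called in 10 of 12 fits with 1 array left out. CYCD6;1 (AT4G03270), known for the formative divisions of the ground tissue, read 4.19, 4.65 and 4.52 in wer myb23, 4.54, 4.28 and 4.80 in gl3 egl3, 4.83, 5.33 and 4.49 in ttg, and 5.45, 5.28 and 5.46 in cpc try. Here too ttg replicate 2 was the array that overlapped, and the CYCD6;1 difference was -0.77 (SE 0.169, adjusted p = 0.000908), called in 11 of 12 such fits. CYCD5;1 (AT4G37630) read 4.26, 4.75 and 5.05 in wer myb23, 5.31, 5.75 and 4.96 in gl3 egl3, 5.18, 5.04 and 5.12 in ttg, and 5.49, 6.40 and 6.52 in cpc try, a difference of -1.09 (SE 0.289, adjusted p = 0.00698). The CYCD5;1 call was the least stable of the 6, kept in 5 of 12 fits with 1 array left out. CYCD3;1, from the same subfamily as CYCD3;3, differed by -0.45 (SE 0.218, adjusted p = 0.209), and CDKA;1, the main CDK of the cycle, by -0.18 (SE 0.336, adjusted p = 0.869).

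The 15 genes of the G2/M list all had differences below 0 in the hairy lines at Michigan, from -1.20 to -0.45 with a median of -0.91, and none passed 1% FDR in the limma fit; 12 of the 15 had an unadjusted p under 0.05, beside 10.6% of all genes in that direction. CYCB1;1 (AT4G37490), the B-type cyclin widely used as a reporter of the passage from G2 to mitosis, read 7.22, 6.92 and 7.41 in wer myb23, 7.99, 6.94 and 7.31 in gl3 egl3, 7.75, 7.90 and 7.27 in ttg, and 7.64, 8.25 and 8.06 in cpc try. The ranges overlapped, and the CYCB1;1 difference of -0.57 (SE 0.36) had an adjusted p of 0.399. The largest difference of the list was that of CYCA2;1 (-1.20, adjusted p = 0.0142), one of the A2 cyclins that hold back the endocycle. CYCA1;1, which acts in mitosis, was the only gene of the list with every hairy array below every cpc try array (difference -1.10, adjusted p = 0.0306). Over all genes, 3.3% lay that way.

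The S list stood closer to 0 in this contrast. Of its 12 genes, 11 had differences below 0 with a median of -0.68, none was called and 4 had an unadjusted p under 0.05. MCM5 (AT2G07690), a subunit of the replicative helicase, read 8.36, 7.50 and 8.77 in wer myb23, 8.66, 7.43 and 8.40 in gl3 egl3, 9.05, 9.13 and 8.74 in ttg, and 8.71, 9.62 and 9.38 in cpc try. The MCM5 values overlapped, with a difference of -0.79 (SE 0.336, adjusted p = 0.133). PCNA1 differed by -0.77 (adjusted p = 0.235), and CDC6 and CDT1A, which license origins, by 0.28 and -0.04.

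A further 43 of 50 genes of the cell cycle, counted as a list of other pathway genes, had a median difference of -0.39 at Michigan, with 33 of 43 below 0. Of these, 2 of 43 were called, beside 7.16% of all genes (2.75% lower). Both were lower in the hairy lines: the CDK inhibitor gene KRP5 (-1.14, limma, adjusted p = 0.00573) and the Aurora kinase gene AUR2 (-0.96, adjusted p = 0.00934). Marker lists differed in the same contrast. All 3 measured markers of the stem cell niche and meristem were lower in the hairy lines (median -1.89), 4 of 5 markers of the early epidermis were lower (median -2.56) and all 8 markers of differentiating hair cells were higher (median 5.17); the last 2 lists are of the sorted epidermis itself. WER and TRY of the early list are mutated in lines compared here. GL2, TTG2, ETC1 and the 8 hair cell markers are among the genes that the study selected by this contrast on these arrays, at both facilities. Neither list is therefore an independent measure of cell type in comparisons of these lines. Outside the epidermis, 1 of 4 lateral root cap markers, 1 of 8 ground tissue markers and 0 of 6 stele markers were lower, beside 2.75% of all genes. Their medians were -0.64, -0.28 and -0.33, and none was higher. Lateral root cap cells are among those sorted. The stem cell niche and meristem list stood at 1.14, 1.79 and 1.29 in cpc try and at -0.97, -1.23 and -0.93 in wer myb23. The part of these markers in the differences of the cell cycle genes was not tested.

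The hairy lines were also set against cpc try one by one. Comparisons of single lines were chosen after the data had been seen, and the 3 share the cpc try arrays. In wer myb23 against cpc try, 16 of 43 genes (37.2%) passed 5% FDR, beside 11.3% of all genes: 14 were lower, beside 5.21%, and 2 were higher, beside 6.11%. CCS52A1 (2.45) and SIM (1.08) were the higher genes. From the G2/M list 10 of 15 were lower, among them all 4 called B-type cyclins, and the list's median was -1.37; from the S list none of 12 was called, though 7 had an unadjusted p under 0.05 (11.1% of all genes in that direction), and the median was -0.83. The other lower genes were CYCD3;3, CYCD5;1, CYCD6;1 and WEE1.

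CYCB2;2 (AT4G35620), a B-type cyclin of mitosis, read 5.42, 5.35 and 5.76 in wer myb23 against 6.69, 7.77 and 7.64 in cpc try, without overlap, a 3.62-fold lower level (difference -1.85, SE 0.415, adjusted p = 0.00126). CYCB1;3 (AT3G11520) read 7.61, 7.40 and 7.34 against 8.60, 9.35 and 9.45, and was 3.2-fold lower (adjusted p = 0.0107). CYCA1;1 (AT1G44110) read 8.40, 7.27 and 8.29 against 9.24, 9.78 and 9.70. It was 3-fold lower, as was AUR1, which codes for a kinase of the mitotic spindle (adjusted p = 0.00914 and 0.0132). All of these arrays of wer myb23 lay below those of cpc try. Replicate 1 of cpc try had the lowest G2/M list of its group, and the count of called genes was 22 when it was left out and 9 when replicate 3 was. For gl3 egl3 and ttg against cpc try at Michigan the median over the 15 genes of the G2/M list was -0.85 and -0.53, with no gene of the list called, beside 2.69% and 2.86% of all genes called lower. At an unadjusted p under 0.05, 8 of 15 were lower in gl3 egl3, beside 8.11% of all genes, and 1 of 15 in ttg, beside 7.28%. Neither line was tested against wer myb23 here. At Duke the order of the lines was another one: the median over the G2/M list was -0.40 in wer myb23, -0.69 in gl3 egl3 and -0.57 in ttg, and wer myb23 had 4 of 43 genes called there, beside 8.32% of all genes. These were AUR1, which was lower (-1.01, adjusted p = 0.0362), and CCS52A1, CYCD2;1 and CYCA3;2, which were higher (2.55, 1.49 and 1.47).

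At Duke most differences between hairy lines and cpc try had the direction they had at Michigan. Their size was larger at Duke for 12 of the 43 genes. The 5th percentile of the arrays was 2.80 to 3.01 at Michigan and 3.83 to 4.01 at Duke, so these sizes may not share a scale. The part of this in the sizes was not tested. Only 1 of 43 genes, CCS52A1, passed 1% FDR, beside 3.46% of all genes tested, and 33 of 43 differences lay below 0, beside 44.3% of all genes. The median was -0.23 over the 43 genes, -0.55 over the G2/M list and 0.03 over all genes. The facilities share no arrays. Of the 43 genes, 31 were lower in the hairy lines at both, 5 were higher at both, 5 were lower at Michigan alone and 2 at Duke alone. Across the 43 genes, which are not independent of each other, the differences at the facilities correlated at r = 0.65. The genes called lower at Michigan were not called at Duke. There CYCD3;3 differed by -0.23 and CYCD5;1 by -0.26 (limma, adjusted p = 0.625 and 0.501). CYCD6;1 differed by -0.04 and WEE1 by -0.23 (adjusted p = 0.843 and 0.451). CYCD6;1 was dim at Duke, where its mean lay above that of 12.8% of all genes.

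CCS52A1 at Duke read 9.36, 9.60 and 8.72 in wer myb23, 7.41, 6.57 and 6.94 in gl3 egl3, 8.00, 8.09 and 8.31 in ttg, and 6.17, 7.25 and 6.62 in cpc try. The wer myb23 and ttg arrays lay above cpc try, whereas gl3 egl3 overlapped it. The CCS52A1 difference was 1.43 (SE 0.253), or 2.7-fold (adjusted p = 0.00692), and it passed 1% FDR in 4 of 12 fits with 1 array left out. With the replicate number as a block the CCS52A1 call at Duke was lost (adjusted p = 0.0147). SIM at Duke read 9.58, 9.59 and 9.36 in wer myb23, 9.07, 8.92 and 9.46 in gl3 egl3, 9.54, 9.56 and 9.39 in ttg, and 8.73, 9.07 and 9.08 in cpc try, a difference of 0.42 (adjusted p = 0.0672). CDKB2;2, a CDK of the G2/M transition, and AUR1 had differences of -0.96 and -0.79, with adjusted p of 0.0374 and 0.0395, above the 1% threshold, and CYCD2;1 had a difference of 0.67 (adjusted p = 0.0215).

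**Figure D3:**
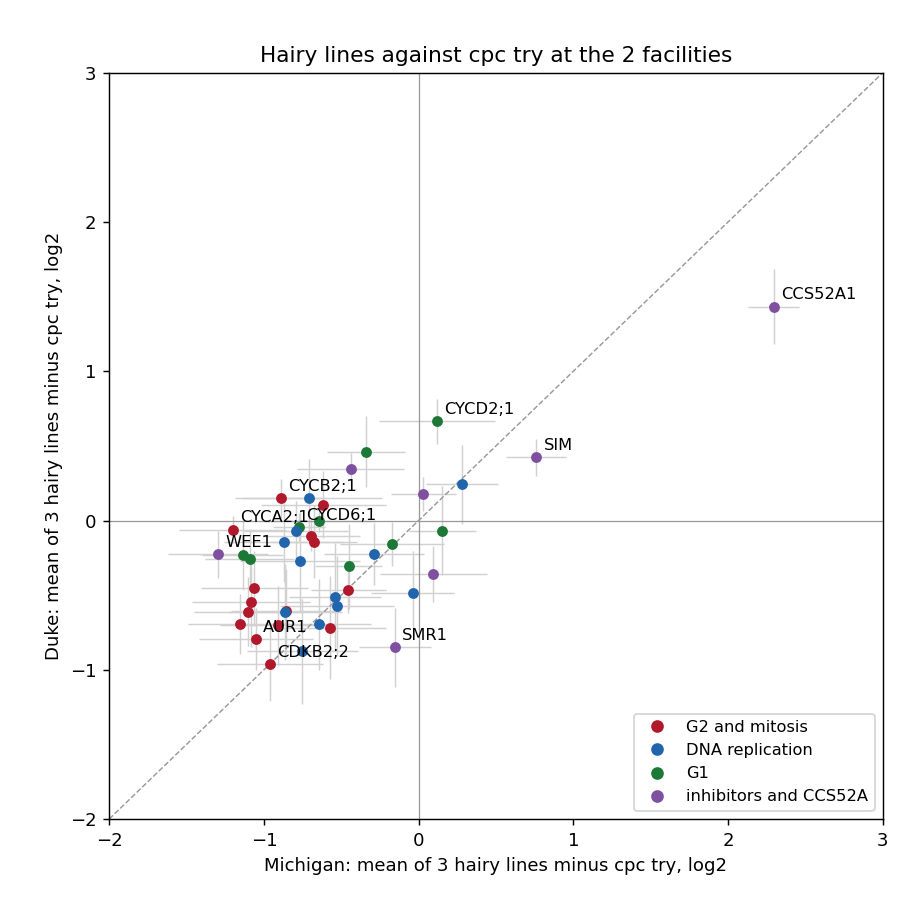
Difference between hairy lines and cpc try (log2 units, hairy minus cpc try) at Duke (y axis) against Michigan (x axis) for the 43 genes, coloured by list; bars are limma standard errors. CCS52A1 lies far to the upper right at 2.29 and 1.43, most G2/M genes lie in the lower left, and CYCA2;1 lies at -1.20 and -0.06.

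Whether a difference depended on the facility was tested over the 24 arrays of these lines. Of the 43 genes, 1 passed 5% FDR, beside 2.82% of all genes, and 10 had an unadjusted p under 0.05, beside 15.9%. That gene was CYCA2;1 (AT5G25380). It read 3.56, 3.76 and 3.95 in wer myb23, 4.06, 4.43 and 4.36 in gl3 egl3, 4.26, 4.25 and 3.65 in ttg, and 4.32, 5.58 and 5.80 in cpc try at Michigan. At Duke CYCA2;1 lay between 3.96 and 4.41 in all 12 arrays, near the dim end of these arrays, whose 5th percentile was 3.83 to 4.01. The difference between hairy lines and cpc try at Michigan, minus the same difference at Duke, was -1.14 for CYCA2;1 (SE 0.303, adjusted p = 0.0478). With so dim a signal at Duke, no dependence on the facility can be read from this value. For CCS52A1 the same test gave 0.86 (adjusted p = 0.156). For CYCD3;3, CYCD5;1, CYCD6;1 and WEE1 that test gave -0.905, -0.836, -0.728 and -1.07 (adjusted p = 0.185, 0.195, 0.0721 and 0.138). Each of these genes, CCS52A1 included, had an unadjusted p under 0.05.

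In gl3 egl3 at Duke, replication genes stood lower than in cpc try. This comparison was also chosen after the data had been seen. It called 14 of 43 genes at 5% FDR (32.6%), beside 34.5% of all genes, so the count as a whole was near the background; 12 of the 14 were lower (27.9%), beside 16.1%. Of the 12 genes of the S list, 7 were called, all lower, and all 12 had every gl3 egl3 array below every cpc try array, beside 24.5% of all genes. The list's median was -1.42. CYCB2;1 (0.97) and KRP1 (0.67) were higher, beside 18.4% of all genes called in that direction.

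PCNA2 (AT2G29570) read 6.12, 7.34 and 6.20 in gl3 egl3 at Duke against 8.57, 9.17 and 8.72 in cpc try, 8.34, 10.13 and 8.74 in wer myb23 and 9.39, 9.36 and 9.13 in ttg. The 3 gl3 egl3 arrays were the lowest of the 12, and PCNA2 was 4.81-fold lower than in cpc try (difference -2.27, SE 0.443, adjusted p = 0.00404). MCM3 (AT5G46280) read 4.49, 5.31 and 4.92 against 6.85, 7.42 and 6.73 in cpc try, 4.26-fold lower (adjusted p = 0.00518). MCM4 was 3.4-fold, MCM7 3.21-fold, PCNA1 2.83-fold, CDT1A 2.72-fold and MCM2 2.65-fold lower. MCM5 was an exception in the helicase, at 5.19, 5.04 and 5.20 in gl3 egl3 against 5.58, 5.69 and 5.48 in cpc try, with an adjusted p of 0.172. CDKA;1 (AT3G48750) read 7.83, 8.35 and 7.61 against 8.89, 9.20 and 8.99, without overlap (difference -1.10, adjusted p = 0.00171). PCNA1 and MCM2 were called in 3 of 6 fits with 1 array left out, while PCNA2, MCM3, MCM4, MCM7, CDT1A and CDKA;1 were called in 6 of 6.

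The wider list of other pathway genes had 10 of 43 lower and 1 higher in this comparison, beside 16.1% and 18.4% of all genes. The lower genes included both measured subunits of ribonucleotide reductase, which makes the building blocks of DNA, RNR1 (-2.10, adjusted p = 0.00677) and TSO2 (-1.78, adjusted p = 0.00303), and the topoisomerase gene TOPII (-1.12, adjusted p = 0.0181). At Michigan the same pair of lines gave a median of -0.80 over the S list, with no gene of it called and 3 of 12 at an unadjusted p under 0.05. The S list in gl3 egl3 at Duke stood at -1.30, -0.63 and -1.04, in cpc try at 0.11, 0.54 and 0.11, in ttg at 0.25, 0.21 and 0.21 and in wer myb23 at 0.18, 1.31 and 0.05. The high wer myb23 array was replicate 2, the one with the low lateral root cap list. Markers also differed between gl3 egl3 and cpc try at Duke: all 8 hair cell markers were higher, and the lateral root cap markers were split, 1 higher and 1 lower of 4. Their part in the difference was not tested.

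Against wild type, the 17 mutant lines at Michigan gave few calls. Of 731 tests (43 genes in 17 lines, all against the same wild type arrays), 9 passed 5% FDR (1.23%), beside 0.911% of all tests over all genes, and 10.7% had an unadjusted p under 0.05, beside 9.55%. All 9 were lower in the mutant. They fell on 5 genes in 5 lines: CCS52A1 in 4 lines, SIM in 2, and KNOLLE, PCNA1 and KRP2 in 1 each. By line, the share of all genes called was 5.05% in cpc try, 4.11% in csld3, 2.76% in mrh3, 2.09% in rhd6 and 0.993% in ttg. In the other 12 lines none of the 43 genes was called, 38 of 516 tests had an unadjusted p under 0.05, and at most 0.219% of all genes were called.

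CCS52A1 read 9.77, 10.05 and 9.79 in wild type. In cpc try it was 4.49-fold lower (difference -2.17, SE 0.199, adjusted p = 2.28e-11) and kept the call in 6 of 6 fits with 1 array left out. In csld3, a mutant of a cellulose synthase-like gene, CCS52A1 read 9.12, 8.89 and 8.88, a 1.87-fold lower level (adjusted p = 0.00682). In mrh3 it read 9.48, 8.42 and 8.84 and was 1.94-fold lower (adjusted p = 0.00301). In rhd6, which lacks the bHLH factor that starts hair growth, it read 9.23, 9.09 and 9.15, 1.64-fold lower (adjusted p = 0.0415). None of the arrays of these 4 lines reached the wild type range. The rhd6 call was lost whenever any of the 6 arrays was left out, the csld3 call without wild type replicate 2 and the mrh3 call without mrh3 replicate 2. Of the remaining groups, CCS52A1 in rhd6 + MS, rhd6 + IAA and rhd6 + ACC had means of 9.12, 9.18 and 9.39, and in gl2, which makes hairs in both positions, a mean of 9.97 ± 0.177 (SD, n = 3).

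**Figure D4:**
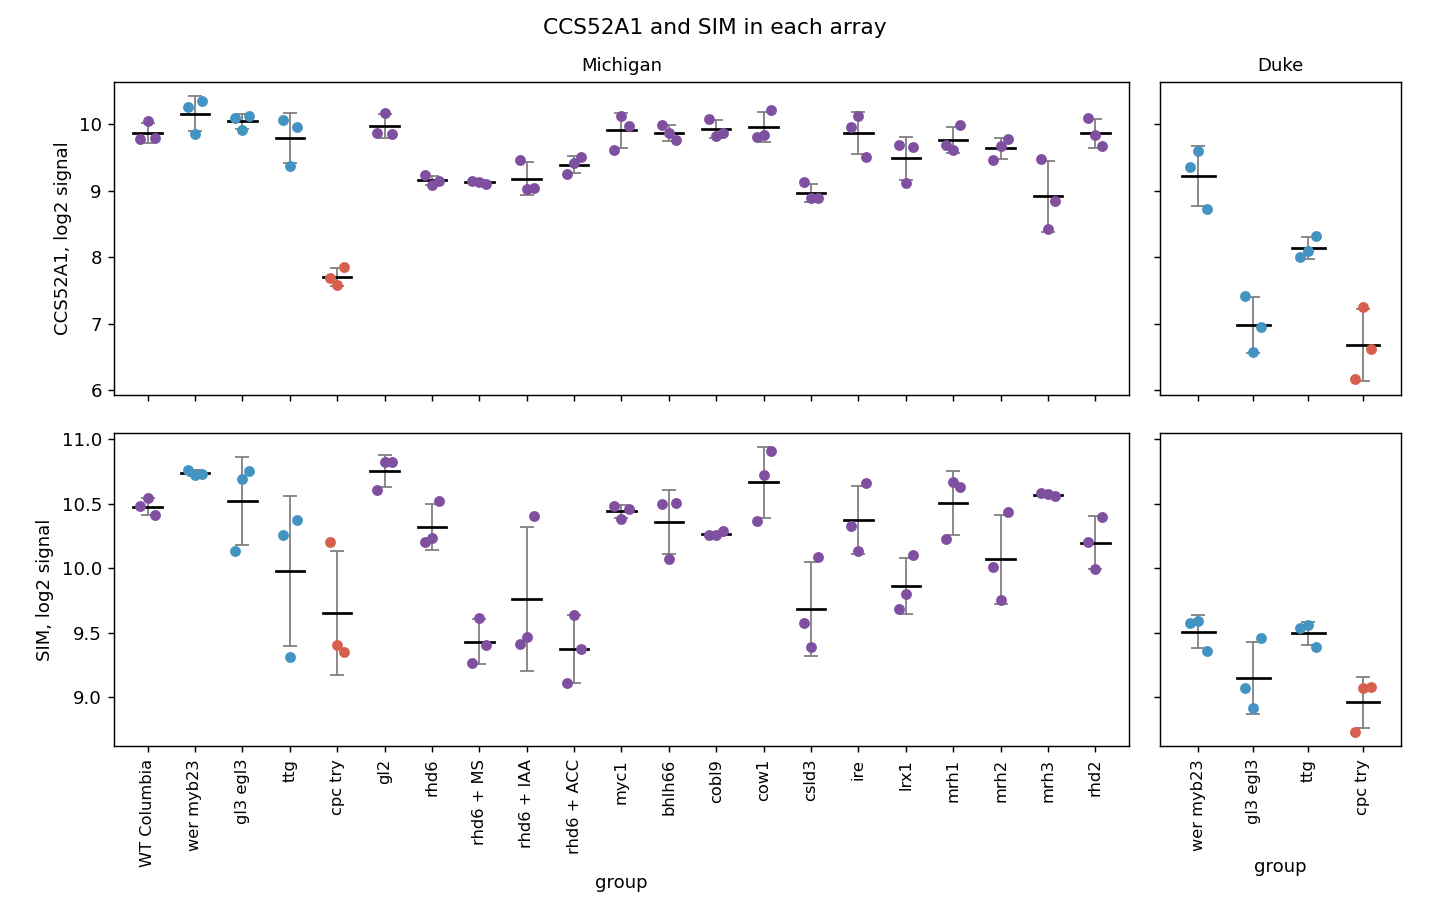
CCS52A1 (top) and SIM (bottom), log2 intensity per array, in the 21 Michigan and 4 Duke groups; points are arrays (blue hairy lines, red cpc try, purple other groups) and bars the mean and SD of 3 arrays, and levels are not comparable between facilities. CCS52A1 lies between 7.58 and 7.85 in cpc try at Michigan, below all other Michigan arrays, and SIM is lowest in rhd6 + ACC, rhd6 + MS and cpc try.

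SIM read 10.48, 10.54 and 10.41 in wild type, 0.82 above cpc try (SE 0.239, adjusted p = 0.0288) and 0.79 above csld3, which read 9.58, 9.39 and 10.09 (adjusted p = 0.0474). Each SIM call was kept in 1 of 6 fits with 1 array left out. KRP2 (AT3G50630), an inhibitor of CDKA, read 5.57, 5.70 and 5.86 in ttg against 7.13, 7.65 and 7.49 in wild type, 3.29-fold lower (adjusted p = 0.027). Wild type was not measured at Duke. There KRP2 read 6.35, 6.47 and 6.60 in ttg and 7.23, 7.05 and 7.42 in cpc try, without overlap but not called (difference -0.76, limma, adjusted p = 0.0746). In ttg against cpc try at Michigan KRP2 differed by -0.86 (adjusted p = 0.319). In mrh3, PCNA1 (AT1G07370) read 7.93, 8.17 and 8.39 against 9.70, 9.85 and 9.82 in wild type (3.09-fold lower, adjusted p = 0.0469), and KNOLLE (AT1G08560) read 8.15, 8.17 and 8.37 against 9.83, 9.75 and 9.81 (2.95-fold lower, adjusted p = 0.0302). The mrh3 arrays of both genes lay below wild type with no overlap. The KNOLLE and KRP2 calls were kept in 1 of 6 fits with 1 array left out, and the PCNA1 call in 0 of 6. With the kind of array name as a factor, the KNOLLE, KRP2 and PCNA1 calls and both SIM calls were lost.

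Medians over the 43 genes lay below wild type in 14 of the 17 lines and above it in cpc try (0.52), csld3 (0.23) and ttg (0.13). In cpc try all 15 genes of the G2/M list lay above wild type with a median of 0.75, though none was called and 4 had an unadjusted p under 0.05, beside 5.81% of all genes. In wer myb23 all 15 lay below, with a median of -0.62, none called and 4 at an unadjusted p under 0.05, beside 3.18%. Over all genes the medians of these comparisons were 0.08 and 0.04. In cpc try 2 of 3 stem cell niche and meristem markers were higher than in wild type (median 1.64) and all 8 hair cell markers lower (median -5.09).

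Hormones were compared within rhd6, in which IAA and ACC are known to restore root hairs, against the transferred control rhd6 + MS; both comparisons share those 3 control arrays. Neither hormone called any of the 43 genes at 5% FDR, beside 2.78% of all genes for IAA and 0.779% for ACC. With IAA, 24 of 43 genes had an unadjusted p under 0.05 and a difference below 0, beside 15.4% of all genes, and 1 had one above 0, beside 11.1%; the median was -0.79 against 0.01 for all genes. With ACC, 2 of 43 had such a p below 0, beside 2.85%, and the median was -0.47 against -0.04. The median of the G2/M list was -0.97 with IAA and -0.64 with ACC, and that of the S list -1.10 and -0.57. Each of these 27 genes had a lower mean with either hormone than without. A direct comparison of ACC with IAA, added after the data had been seen, called 0 of 43, beside 0.014% of all genes, with 1 gene at an unadjusted p under 0.05.

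CYCB1;3, with the lowest p of the IAA comparison, read 9.02, 8.89 and 9.30 in rhd6 + MS, 7.69, 8.79 and 6.05 with IAA, and 8.26, 7.96 and 8.13 with ACC. All arrays with hormone lay below all control arrays, and the CYCB1;3 differences were -1.56 (SE 0.465, adjusted p = 0.0526) and -0.96 (SE 0.465, adjusted p = 0.59). CYCB1;1 read 8.17, 8.05 and 9.25 in rhd6 + MS, 7.59, 8.21 and 6.31 with IAA, and 7.56, 7.60 and 7.90 with ACC, so that only IAA replicate 2 reached the control range. MCM5 read 9.59, 9.19 and 9.67 in rhd6 + MS, 8.37, 9.38 and 7.11 with IAA, and 9.06, 8.68 and 8.62 with ACC. The same array, IAA replicate 2, was near the control and replicate 3 was far below it. PCNA1 read 10.13, 10.06 and 10.45 in rhd6 + MS, 9.31, 10.03 and 8.05 with IAA, and 9.63, 9.41 and 9.52 with ACC.

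The IAA arrays differed among themselves in the array median as well. It was 6.86, 6.82 and 6.79 in rhd6 + MS and 6.77, 6.85 and 6.50 with IAA, and the G2/M list with IAA stood at 0.09, 0.49 and -1.06. The array with the lowest median of all 63 was thus the one with the lowest G2/M list of the group, and its part in the result was not tested. Without IAA replicate 2 the IAA comparison called 20 of 43 genes, and without IAA replicate 3 or replicate 1 it called 0. The share of all genes called in these fits was not computed, so the count of 20 has no background beside it. Of the 7 genes of the brake list, 6 had differences above 0 with IAA (median 0.36) and 4 with ACC (median 0.27), none called, while 10885 and 9632 of all 21440 genes lay above 0. KRP1 had a difference of 0.98 with IAA (SE 0.423, adjusted p = 0.131) and of 0.59 with ACC (adjusted p = 0.686), whereas those of WEE1 were -0.97 and -0.47. CCS52A1 differed by 0.05 with IAA and 0.27 with ACC. CYCD3;1 and CDKA;1 differed by -0.05 and -0.05 with IAA, and by 0.03 and 0.09 with ACC.

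**Figure D5:**
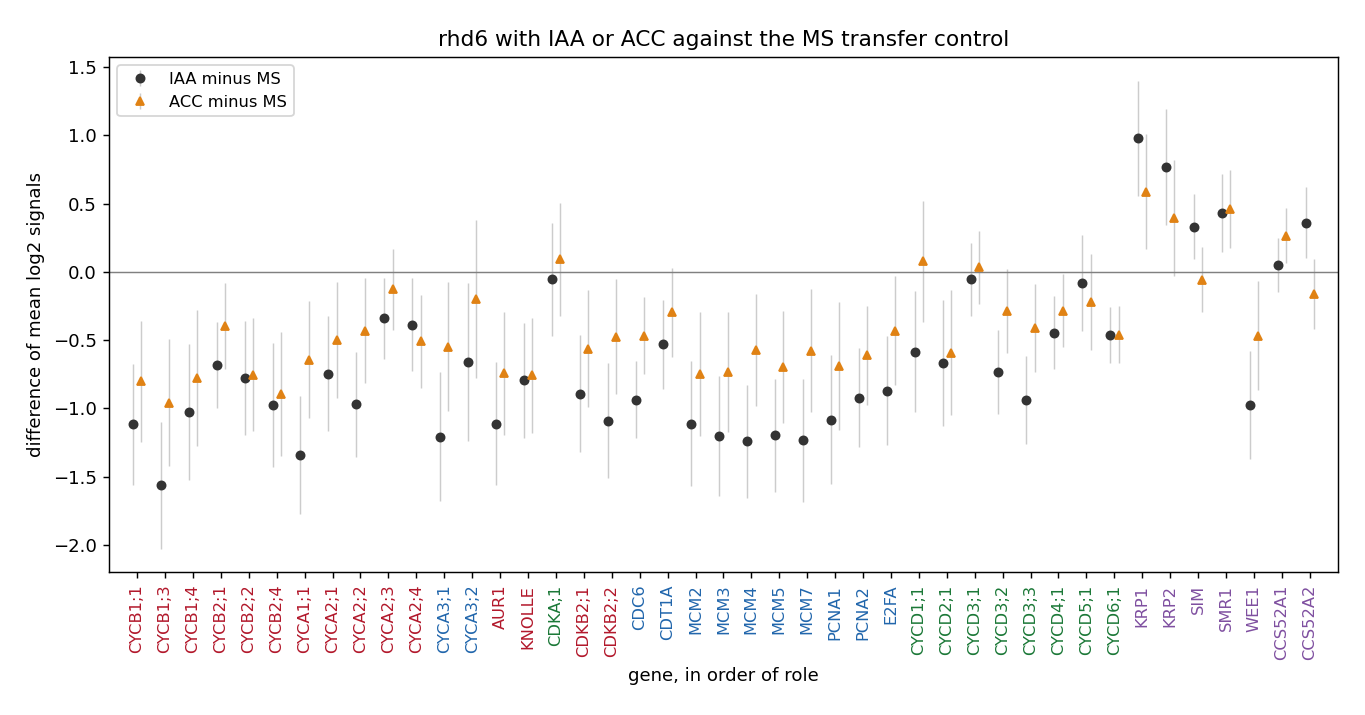
Difference from rhd6 + MS (log2 units) for the 43 genes with IAA and with ACC, genes ordered by role; points are limma estimates and bars standard errors, and both hormones share the rhd6 + MS arrays. Most points of cyclins and replication genes lie below 0 for both hormones, and those of KRP1, KRP2 and SMR1 lie above it.

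Of the 43 other pathway genes, only DEL3, an atypical E2F, was called with IAA, beside 2.78% of all genes. It was lower (-1.24, limma, adjusted p = 0.0388). An unadjusted p under 0.05 with a difference below 0 was found for 24 of the 43, beside 15.4% of all genes. The markers of the same comparisons were 8 of 8 hair cell genes higher with IAA (median 2.64) and 7 of 8 with ACC (median 3.06). The median of the 3 niche markers was -0.88 with IAA and -0.80 with ACC, none called.

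The transferred control differed from untransferred rhd6, a comparison added after the data had been seen. SIM read 9.27, 9.62 and 9.40 in rhd6 + MS against 10.20, 10.24 and 10.52 in rhd6, and fell by 0.89 log2 units (SE 0.239, adjusted p = 0.042), the only call among 43 genes, beside 1.83% of all genes. Without overlap, 19 genes had every rhd6 + MS array above every rhd6 array, beside 16.3% of all genes. The median was 0.55 over the 43 genes, 0.85 over the G2/M list and 0.82 over the S list, against 0.01 over all genes. CYCB1;1 read 7.55, 7.05 and 7.05 in rhd6, and its difference of 1.27 (SE 0.441) had an adjusted p of 0.094. KRP1 and KRP2 had differences of -1.15 and -1.08 (adjusted p = 0.112 and 0.132). The SIM call was kept in 2 of 6 fits with 1 array left out. All 3 rhd6 arrays had S or x names and all 3 rhd6 + MS arrays were numbered, so within these 6 arrays the kind of name and the transfer cannot be told apart, and with the kind of name as a factor over all Michigan arrays the SIM call was lost (adjusted p = 0.318).

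Set against each other, the hairless lines rhd6 (untransferred) and cpc try differed in 5 of 43 genes at 5% FDR (11.6%), beside 5.08% of all genes; this comparison too was added after the data had been seen. CCS52A1 (1.45, adjusted p = 1.67e-06) and KRP2 (1.38, adjusted p = 0.0447) were higher in rhd6, and CYCB1;3 (-1.52), WEE1 (-1.35) and CYCD6;1 (-0.94) were lower. KRP2 read 7.76, 8.10 and 7.99 in rhd6 against 7.67, 5.94 and 6.09 in cpc try. Every rhd6 array was above every cpc try array, and cpc try replicate 1 was close to them. Here too all rhd6 arrays had S or x names and all cpc try arrays were numbered, and with the kind of name as a factor the calls of KRP2, CYCB1;3 and CYCD6;1 were lost. With 1 array left out, CCS52A1 was called in 6 of 6 fits, CYCD6;1 in 5, CYCB1;3 and WEE1 in 2 and KRP2 in 1, and the count of called genes ran from 1 (without rhd6 replicate 2) to 11 (without cpc try replicate 1).

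Across the 21 Michigan group means, the S list correlated with the G2/M list at r = 0.923 and the G1 list did so at 0.917. Over the 63 deviations of arrays from their group mean, which hold no difference between groups, the values were 0.91 and 0.833. The brake list correlated with the G2/M list at -0.554 over group means and at -0.401 over deviations. The stem cell niche and meristem list correlated with the G2/M list at 0.911 over group means and at 0.717 over deviations, the lateral root cap list at 0.537 and 0.259, and the stele list at 0.174 and -0.075. The array median, a technical measure, correlated with the G2/M list at 0.784 and 0.65 and with the S list at 0.834 and 0.763. These are descriptions, since all lists were read from the same arrays and share their normalization.

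CCS52A1 correlated with the hair cell list at 0.826 over group means and at 0.038 over deviations, and with the G2/M list at -0.596 and 0.063. Over group means these became 0.669 without the 2 groups farthest from the median of the hair cell list, and -0.581 without the 2 farthest from the median of CCS52A1. For SIM and the hair cell list the pair of values was 0.664 and 0.33. The G2/M list and the hair cell list correlated at -0.695 over group means, which became -0.268 without the 2 groups farthest from the median of the hair cell list. The hair cell list holds RHD6, COBL9, LRX1 and COW1, which are mutated in some of these groups. In their own lines they differed from wild type by -3.67, -3.093, -6.69 and -7.145. The level of the list in those groups is thus partly set by the mutation.

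By likeness to CYCB1;1 over the 21 group means, the closest of the 43 genes were the helicase subunit MCM3 (r = 0.942), the kinase CDKB2;2 (0.917), MCM4 (0.913) and MCM5 (0.897), and the farthest was SIM (-0.762). CDKA;1 was at 0.154. The brake list was split, with WEE1 at 0.819 and SMR1 at 0.158. Its other genes besides SIM lay below 0, with KRP2 at -0.518, CCS52A1 at -0.481, KRP1 at -0.335 and CCS52A2 at -0.283. Among all 21440 genes the 5 most like CYCB1;1 were AT3G56270 (0.953), SRT1 (0.952), POLGAMMA2 (0.95), RPL15 (0.95) and TIL1 (0.949), with a median of 0.028 over all genes. The 5 most like CCS52A1 were AT2G02690 (0.93), ELF5A-1 (0.922), AT5G40510 (0.917), CPK2 (0.903) and AT3G01720 (0.903).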

How the data were processed

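RNA from sorted WER::GFP cells had been hybridised to ATH1 arrays, 3 per group. The deposited table held log2 values that the authors had made by robust multi-array averaging with quantile normalization over probe sets redefined to 1 per gene; software versions are not given in the sources used here. Values were used as deposited. Apart from 64 control probe sets, the table held 21440 genes, 21222 of them matched to a symbol in the RefSeq gene table. limma 3.58.1 in R 4.3.3 (lmFit and eBayes) was fitted with 1 mean per group, over all 63 Michigan arrays and, apart, over the 12 Duke arrays, with Benjamini-Hochberg adjustment across the whole table. Hairy lines against cpc try were called at 1% FDR, all other comparisons at 5%. The interaction of line and facility was fitted over both, and the facilities may have been normalized apart, so levels were not compared between them. The limma fit was tried on simulated data for hairy lines against cpc try at each facility and for rhd6 + IAA against rhd6 + MS. The other steps were not tried in this way. No array was identical to another. The members, lists and tests were chosen with earlier results of these data known. Values per array are given for up to 6 members per comparison with the largest difference among those called, and for CYCB1;1, MCM5, PCNA1, CDKA;1, CYCD3;1, KRP2 and CCS52A1, in the comparisons where they matter; CYCA2;1 was added after its values were seen. An intensity carries no count of molecules, so the precision came from the spread between the 3 arrays of a group. That spread was estimated per gene over all groups in the fit. P-values set a difference against the spread between such arrays, each from its own pool of seedlings. Alternatives tried were other groupings, scalings, filters, thresholds, array weights, the array series as a factor, a replicate block and leaving out each array. No sequence was analysed here.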

Additional observations from a re-analysis of the deposited data

Results flagged for a closer look

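CYCA2;1, an A-type cyclin gene, passed the test of whether the difference between hairy lines and cpc try was the same at both facilities. Michigan minus Duke was -1.14 log2 units (SE 0.303, limma interaction, adjusted p = 0.0478), from -1.20 at Michigan (adjusted p = 0.0142) and -0.06 at Duke (adjusted p = 0.755). At Michigan the 2 high arrays were replicates 2 and 3 of cpc try, at 5.58 and 5.80, and replicate 1 of cpc try read 4.32. At Duke the gene lay between 3.96 and 4.41, near the dim end of those arrays (5th percentile 3.83 to 4.01), so a dependence on the facility cannot be read from this value. It was the only one of the 43 genes past 5% FDR, a smaller share than the 2.82% of all genes. The other groups of 3 arrays are too small for a check of single outlying arrays.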

How the results depend on the processing

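Over 273 alternatives for the counts of called genes, 213 stayed within 1.5 times the count reported, and over 706 alternatives for single calls 536 kept the call, 170 lost it and 0 reversed sign. Hairy lines against cpc try at Michigan called 6 of 43 genes, and 1 with only the groups compared in the fit, 30 with array quality weights, 11 at 5% FDR and 14 at an unadjusted p under 0.01. At Duke it called 1, and 0 with a replicate block, 7 with weights, 4 at 5% FDR and 8 at an unadjusted p under 0.01. The 9 calls of the lines against wild type became 68 with weights, 4 with the array series as a factor, 1 with the numbered series only, 4 at 2-fold and 5% FDR and 19 at an unadjusted p under 0.01. IAA called 0, and 3 with dim genes left out, 1 with a median shift, 1 after quantile normalization within the facility, 27 with weights and 8 at an unadjusted p under 0.01. ACC called 0, and 4 with only the groups compared and 9 with weights. The F test called 15 at Michigan and 42 with weights. Untransferred rhd6 against cpc try called 5, and 1 with only the groups compared, 36 with weights and 2 with the series factor. rhd6 + MS against rhd6 called 1, and 0, 28 and 0 under the same settings. wer myb23 against cpc try at Michigan called 16, and 32 with weights. Weights raised calls over all genes too, and the cause was not tested. The shares of all genes called with weights were 24.7% for hairy lines at Michigan and 12.8% at Duke. For IAA and ACC they were 41.1% and 16.5%. The other counts under alternatives have no share of all genes beside them and are not read as results about these genes. With 1 array left out, counts ranged from 1 (cpc try replicate 3) to 9 (cpc try replicate 1) for hairy lines at Michigan, 0 to 3 (wer myb23 replicate 2) at Duke, 2 (wild type replicate 2) to 10 for the lines, 0 to 20 (IAA replicate 2) for IAA, 0 to 0 for ACC, 10 (ttg replicate 1) to 25 (cow1 replicate 1) for F at Michigan, 14 (gl3 egl3 replicate 1) to 27 (wer myb23 replicate 2) for F at Duke, 9 (cpc try replicate 2) to 14 for gl3 egl3 at Duke, 1 (rhd6 replicate 2) to 11 (cpc try replicate 1) for rhd6 against cpc try, 0 (rhd6 + MS replicate 1) to 10 (rhd6 replicate 1) for rhd6 + MS, and 9 (cpc try replicate 3) to 22 (cpc try replicate 1) for wer myb23. The share of all genes called was not computed for the fits with 1 array left out, so these ranges have no background beside them. The alternatives for single lines against cpc try and for rhd6 + MS were chosen after seeing the data.

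Replicate numbers showed no general pairing of the arrays at Michigan. Same-numbered arrays of different groups had a median correlation of deviations of 0.006 over 630 pairs there (0.001 for different numbers). These correlations ran from -0.808 to 0.779, so a link within some of the groups cannot be set aside. At Duke the median was 0.139 over 18 pairs (-0.072 for different numbers), and 61.1% of these pairs were above 0.1, beside 36.8% at Michigan. A weak link between same-numbered arrays at Duke therefore cannot be set aside. With the replicate block the counts were 6 and 0 for hairy lines at Michigan and Duke, 8 for the lines, 0 for IAA and for ACC, 14 and 21 for F at Michigan and Duke, 17 for gl3 egl3 at Duke, 5 for rhd6, 1 for rhd6 + MS and 16 for wer myb23.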
